A study of Mus musculus with 9 samples.

Results

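Cytochrome P450 enzymes are haem proteins that insert 1 oxygen atom into a lipid, steroid or drug. Most sit in the endoplasmic reticulum and draw their electrons from the reductase encoded by *Por*, while a smaller set in mitochondria is served by ferredoxin and its reductase. Liver is known for the largest variety of these enzymes, which make bile acids from cholesterol, oxidize fatty acids and clear foreign compounds. The genes described here are the protein-coding genes of the GENCODE M1 annotation whose symbol is Cyp followed by a digit, together with *Por*. The annotation has 99 such genes, and 45 of them, 44 P450 genes and *Por*, had a value in the deposited tables. These tables hold 13643 genes in all.

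RNA had been sequenced from AML12 cells, a mouse hepatocyte line, in 9 libraries. Cells infected with lentivirus carrying a control hairpin (Ctrl), shRNA 1 against *Srrm2* (sh1) or shRNA 2 against *Srrm2* (sh2) gave 3 libraries each. *Srrm2* encodes a scaffold protein of nuclear speckles. All cells were grown in medium with 10% fetal bovine serum, an insulin, transferrin and selenium supplement and 0.1 μM dexamethasone, a glucocorticoid. The hairpins against *Srrm2* were given for 5 days, and day 5 is given for the control libraries as well. The cells are a single immortalised line in culture, and nothing in the labels says whether the 3 libraries of a group came from separate cultures.

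The value used for each gene is the authors' mean normalised count, which averages the 6 libraries of a comparison. The first table averages the control and shRNA 1 libraries and the second the control and shRNA 2 libraries. A level given here therefore belongs to a pool of depleted and control cells, has no error and cannot show the change from control to knockdown. The means sum to 6144608 in the first table and 6393456 in the second, and the depth of a single library is unknown. *Srrm2* itself had authors' means of 3428 and 3759, which does not check the knockdown, since both pools mix control and depleted cells. Of the 7 hepatocyte markers looked up, all had a value, from *Ttr* with 2049 and 2165 counts per kilobase down to *Tat* with 1.84 and 1.24. Among markers of other liver cells, 3 of 4 bile duct genes had a value and summed to 2301 and 2323 counts per kilobase, with *Krt19* at 1809 and 1747, against 3816 and 3869 for the hepatocyte list. Macrophage markers summed to 26.9 and 31.0, with *Ptprc* at 0.91 and 0.94, *Des* was the single stellate marker with a value, at 2.65 and 1.87, and the 3 endothelial markers had none. The part of the bile duct genes in the P450 levels was not tested.

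Shared sequence matters for this family, because the authors kept read pairs that map to a single place. The cysteine that binds the haem iron lies in a conserved loop, and the 30 bases that code for this loop are compared here for some of the genes. Being short and conserved, this stretch does not measure likeness over the whole transcript, for which shared sequence is given further on. The stretches below are read from the coding strand of GENCODE M1 transcripts on NCBIM37 (mm9), 5′ to 3′, with the cysteine codon in capitals, for *Cyp3a13* and its relative *Cyp3a16*, for a pair of close relatives each from *Cyp4a* and *Cyp2c*, and for *Cyp4f17*, *Cyp27a1* and *Cyp2j6* as examples from other subfamilies.
Cyp3a13: tttgggagtggaccaaggaacTGCattggc
Cyp3a16: tttgggaatggacccaggaacTGCattggc
Cyp4a12a: ttctcaggaggagcaaggaacTGCattggg
Cyp4a12b: ttctcaggaggagcaaggaacTGCattggg
Cyp4f17: ttttctgctgggcctaggaacTGCatagga
Cyp27a1: ttcggctatggggttcggtctTGCctgggt
Cyp2j6: ttctcaatgggaaagcgagctTGCctggga
Cyp2c68: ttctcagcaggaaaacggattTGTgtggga
Cyp2c40: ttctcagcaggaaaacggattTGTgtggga
In *Cyp3a13* the stretch is chr5:138336495-138336524 on the - strand, within exon 12 of 13, and the cysteine is codon 442. In *Cyp3a16* it is chr5:146201310-146201339, also on the - strand. In the *Cyp4a*, *Cyp4f*, *Cyp2j* and *Cyp2c* genes shown it spans the junction of the last 2 exons, in genes that lie at 32643407 to 32665839 of chromosome 17 (*Cyp4f17*, + strand), 96182829 to 96220352 of chromosome 4 (*Cyp2j6*, - strand), and 39763324 to 39815544 and 39841561 to 39887304 of chromosome 19 (*Cyp2c68* and *Cyp2c40*, - strand). *Cyp3a16* differs from the stretch of *Cyp3a13* at 2 of the 30 bases and *Cyp4a12a* at 8. *Cyp4a12a* and *Cyp4a12b* share the same 30 bases, and so do *Cyp2c68* and *Cyp2c40*. *Cyp27a1*, at chr1:74783894-74783923 on the + strand in exon 8 of 9, differs from *Cyp3a13* at 15 bases. Of the 44 P450 genes with a value, 39 code for this signature (phenylalanine, glycine, arginine, cysteine and glycine at fixed spacing), with TGC for the cysteine in 27 and TGT in 12. *Cyp39a1*, *Cyp20a1*, *Cyp51*, *Cyp2s1* and *Cyp2d37-ps* do not match this strict pattern in the transcript used.

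Expression of the family in AML12 cells was led by *Por* and a few P450 genes, and most of the others were at very low levels. Divided by transcript length, the authors' mean of *Por* (chromosome 5, 136145903 to 136211196 of mm9) came to 361 counts per kilobase in the control and shRNA 1 pool and 364 in the control and shRNA 2 pool. These levels stood above 92.1% and 91.9% of the protein-coding genes with a value. *Por* alone stood at 0.262 and 0.272 times the summed level of the P450 genes with a value in the same table. The median P450 family gene, *Por* included, stood at 6.62 counts per kilobase in the first table and 7.65 in the second, against 60.1 and 62.8 for the median protein-coding gene. The first table has a value for 45 of the family genes and the second for 43, so their medians cover unlike sets.

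The highest P450 gene was *Cyp3a13* (chromosome 5, 138334160 to 138362847), a member of the subfamily that hydroxylates drugs and steroids. It reached 225 counts per kilobase in the shRNA 1 table and 189 in the shRNA 2 table. It was followed by *Cyp39a1*, an oxysterol hydroxylase of bile acid synthesis, with 165 and 179 counts per kilobase. *Cyp4a12a*, a fatty acid omega-hydroxylase, came next with 124 and 123 counts per kilobase. *Cyp27a1*, the mitochondrial sterol hydroxylase that opens the acidic route to bile acids, had 93.6 and 91.4. *Cyp20a1*, an orphan enzyme with no settled substrate, had 87.1 and 94.6. These 5 genes held 50.5% and 50.6% of the summed P450 level in the 2 tables, and the first 10 held 76.6% and 77.2%. With no spread between libraries at hand, neighbours in this order such as *Cyp27a1* and *Cyp20a1*, which change places between the tables, cannot be ranked.

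**Figure D1:**
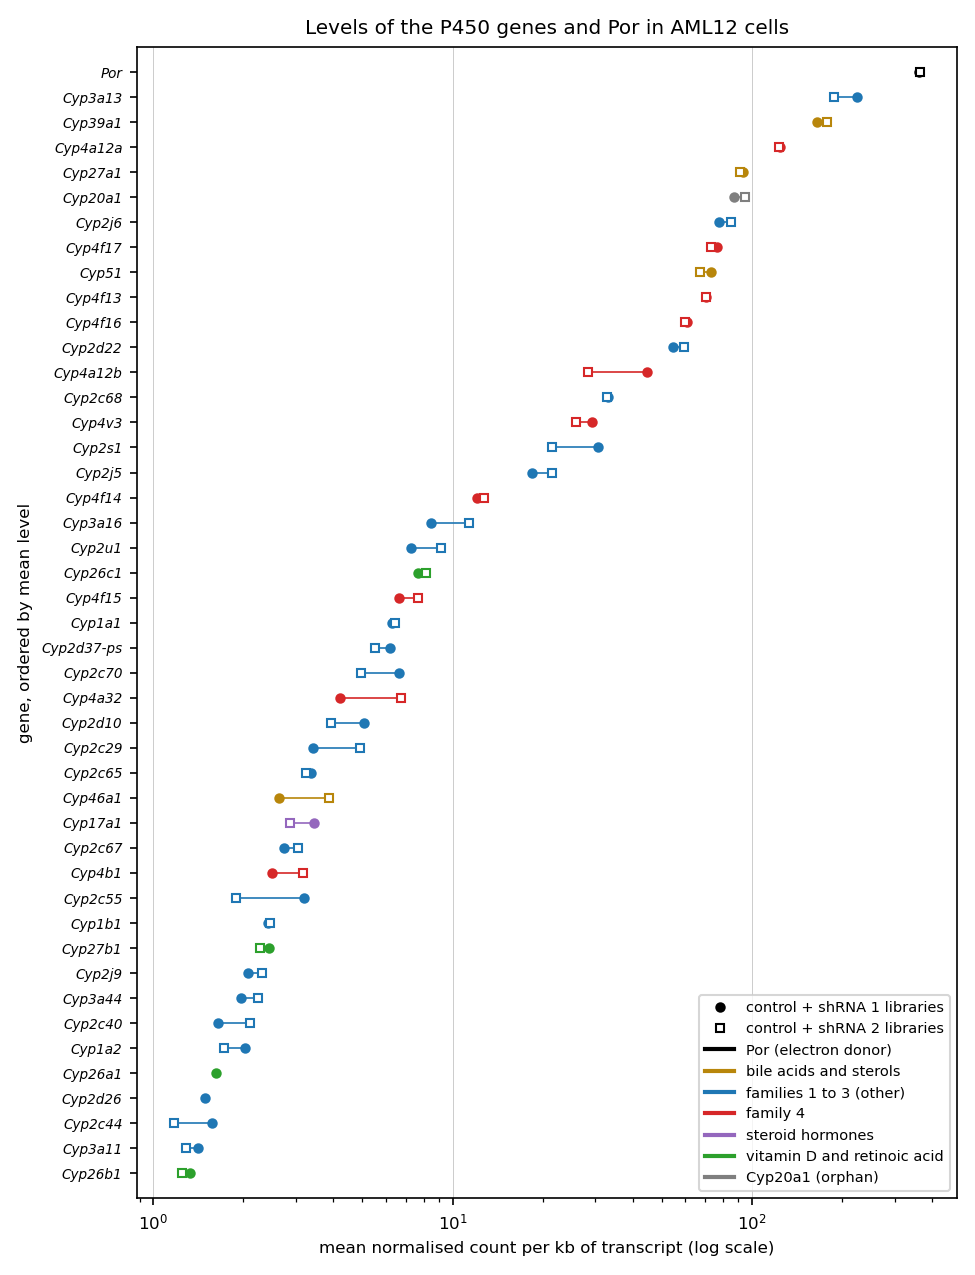
Level of each of the 45 genes as the authors' mean normalised count per kilobase of transcript (horizontal, log scale), ordered by the average of both tables. Filled circles are the pool of control and shRNA 1 libraries, open squares the pool of control and shRNA 2 libraries, colours give the role, and the levels fall from about 361 for Por to under 2 for Cyp26b1.

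The next genes described had between 26.0 and 85.4 counts per kilobase. *Cyp2j6*, of a subfamily that epoxidizes arachidonic acid, had 77.9 counts per kilobase in the first table and 85.4 in the second. *Cyp51*, the lanosterol demethylase of cholesterol synthesis, had 73.1 and 67.4. The 3 family 4 genes *Cyp4f17*, *Cyp4f13* and *Cyp4f16*, of a subfamily that hydroxylates long fatty acids and leukotrienes, had between 59.7 and 76.7 counts per kilobase in the 2 tables. *Cyp2d22* had 54.4 and 59.1, and *Cyp2c68* 33.2 and 32.7. *Cyp4v3*, another fatty acid omega-hydroxylase, had 29.2 and 26.0. Of all 45 genes, 11 lay above the median protein-coding gene in the first table and 10 in the second.

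Grouped by role, the enzymes of families 1 to 3 without the sterol and vitamin genes summed to 506 and 477 counts per kilobase in the 2 tables, from 24 genes with a value. *Cyp3a13* supplied 225 and 189 of these. *Cyp2d26*, with no value in the second table, is missing from the second sum. Family 4, with 10 genes with a value, summed to 431 and 411. Bile acid and sterol enzymes summed to 335 and 342 counts per kilobase from only 4 genes, *Cyp39a1*, *Cyp27a1*, *Cyp51* and *Cyp46a1*, the last with 2.62 and 3.87. The other 3 of this list, *Cyp7a1*, which catalyses the rate-limiting step of bile acid synthesis, *Cyp7b1* and *Cyp8b1*, had no value and were not analysed here. The vitamin D and retinoic acid enzymes were low, at a summed 13.0 and 11.7 counts per kilobase for 4 genes. The second of these sums lacks *Cyp26a1*, so the 2 sums cannot be compared. *Cyp26c1*, which breaks down retinoic acid, was the highest of them with 7.66 and 8.16. *Cyp26a1*, of the same function, had an authors' mean of 2.87 in the first table and no value in the second. Of 6 steroid hormone genes, *Cyp17a1* alone had a value, with 3.44 and 2.87 counts per kilobase.

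**Figure D2:**
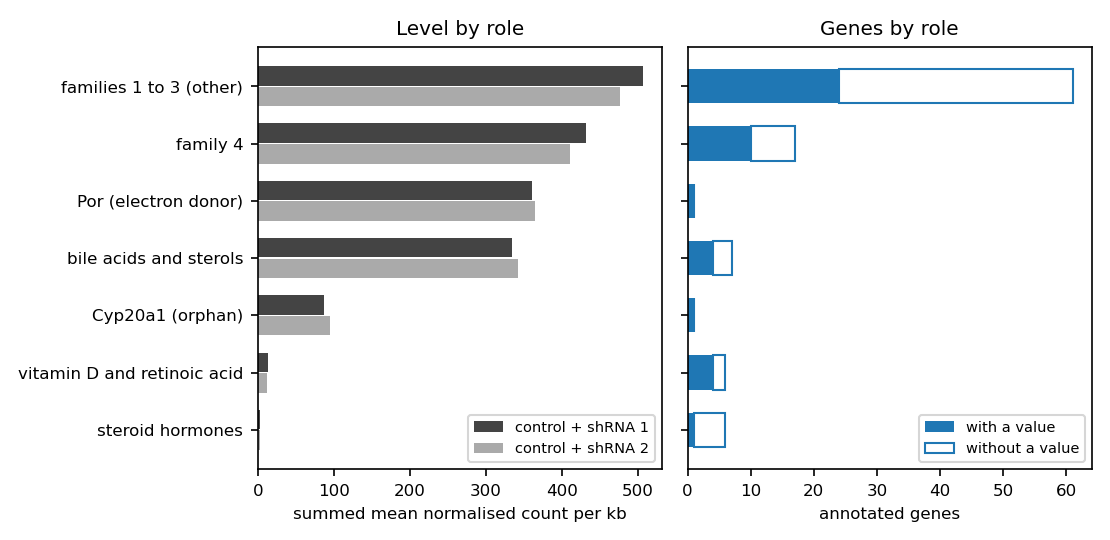
Left, summed mean normalised count per kilobase for each role group, in the pool of control and shRNA 1 libraries (dark) and of control and shRNA 2 libraries (light); right, number of annotated genes of the group with a value (filled) and without (open). Families 1 to 3 hold 61 annotated genes, of which 24 have a value.

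Several genes that stand for the drug-handling liver were low or without a value. *Cyp1a1*, a target of the aryl hydrocarbon receptor, had 6.30 and 6.41 counts per kilobase, *Cyp1b1* 2.42 and 2.46, and *Cyp1a2* 2.02 and 1.72. *Cyp3a11*, which lies in the main *Cyp3a* cluster, had 1.42 and 1.28. *Cyp2e1*, *Cyp2b10*, *Cyp2a5* and *Cyp2f2* were among the 54 annotated genes with no value. In all, 45.5% of the 99 annotated genes had a value in either table, against 57.3% of all annotated protein-coding genes. The lowest mean with a row was 1.56 in the first table and 1.92 in the second, and why a given gene has no row was not tested.

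The levels, counted from read pairs with a single place, were uneven within the genomic clusters in which these genes lie. Some genes of a cluster share much sequence, as described further on, and its part in these levels was not tested. On chromosome 7, the cluster from 26587494 to 27943687 holds 13 annotated genes of the *Cyp2a*, *Cyp2b*, *Cyp2f*, *Cyp2g*, *Cyp2s* and *Cyp2t* subfamilies, and *Cyp2s1* at its edge was the only member with a value. The *Cyp2c* cluster on chromosome 19 (39081509 to 40261823) has 14 genes, of which 7 had a value and 1, *Cyp2c68*, reached an authors' mean of 10 in each table. On chromosome 17, 5 of the 7 genes of the *Cyp4f* cluster (32605404 to 33084347) had a value, all 5 with a mean of at least 10, and they summed to 226 and 223 counts per kilobase. The *Cyp4a* cluster on chromosome 4 (114778928 to 115320322) has 8 genes, of which 4 had a value, led by *Cyp4a12a*. The 9 genes of the *Cyp2d* cluster on chromosome 15 were led by *Cyp2d22*, and the 8 of the *Cyp2j* cluster on chromosome 4 by *Cyp2j6*. *Cyp3a13* lies 7743 kilobases from its nearest relative of the same subfamily. The 8 relatives share a cluster of their own, in which 3 had a value and *Cyp3a16*, with 8.48 and 11.3 counts per kilobase, was the highest.

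Most of the genes further down the order had few reads, and 21 of the 45 were under a mean of 10 in a table or had a value in 1 table alone. *Cyp2s1* stood at 30.7 and 21.4 counts per kilobase, *Cyp2j5* at 18.4 and 21.5, and *Cyp4f14*, which inactivates leukotriene B4, at 12.1 and 12.8. *Cyp2u1* had 7.29 and 9.19 and *Cyp4f15* 6.62 and 7.65. In the *Cyp2c* subfamily, which epoxidizes arachidonic acid and clears drugs, *Cyp2c70* had 6.64 and 4.93 counts per kilobase and *Cyp2c29* 3.41 and 4.92. *Cyp27b1*, which activates vitamin D, had 2.45 and 2.28, and *Cyp26b1*, the lowest of all in the first table, 1.33 and 1.25. Exon numbers were shared within several subfamilies but not within *Cyp2d*, whose 4 genes with a value have 4 to 10 exons. All 8 *Cyp2c* and 3 *Cyp2j* genes with a value have 9 exons in the transcript used, as have 13 of the 17 *Cyp2* genes together, while the 4 *Cyp3a* genes have 13 and the *Cyp4a* and *Cyp4f* genes 12 or 13. *Cyp1b1* has 3 exons and *Cyp46a1*, the cholesterol hydroxylase of brain, 15.

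To ask whether the hairpins gave the same P450 levels, the pooled mean of a gene in the shRNA 2 table was divided by that in the shRNA 1 table. The tables had been normalised separately, so the log2 ratio was centred on its median over the 7757 genes reaching a mean of 100 in each table, which removed 0.07. If the same control libraries entered both pools, they dilute the ratio, and the hairpin groups themselves would differ at least as much. No error can be given and no test was possible. Of 45 genes, 24 reached a mean of 10 in each table. Their median centred log2 ratio was -0.05 (quartiles -0.11 and 0.05), against 0.0043 (quartiles -0.10 and 0.10) for all 11451 genes. A ratio past 1.2-fold in either direction was seen for 5 of the 24, or 20.8%, against 13.1% of all genes. Of these, 3 were lower in the shRNA 2 pool, where 6.63% of all genes were, and 2 higher, where 6.44% were. Without the centring 2 of the 24 were lower and 2 higher, against 3.96% and 11.1% of all genes, so the direction of the calls over all genes depends on the centring. The other 19 stayed within 1.2-fold.

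*Cyp4a12b* had the lowest ratio, with authors' means of 107 in the shRNA 1 table and 68.1 in the shRNA 2 table, a centred log2 ratio of -0.72. *Cyp2s1*, an enzyme known mostly outside the liver, had means of 97.0 and 67.8 and a log2 ratio of -0.59. *Cyp3a13* had 664 and 558, a log2 ratio of -0.32, which falls within the 1.2-fold limit at -0.25 without the centring. All 3 were lower in the pool with shRNA 2. In the other direction *Cyp3a16* had means of 14.7 and 19.6 and a log2 ratio of 0.35, and *Cyp2u1*, a fatty acid hydroxylase, 17.0 and 21.4 and a log2 ratio of 0.27, just past the limit of 0.26. Both are low genes, and among all genes with an average mean of 10 to 30, 30.8% were past 1.2-fold, compared with 20.9% from 30 to 100 and 8.47% from 100 to 1000. In that highest range, 1 of 12 P450 family genes, *Cyp3a13*, was past the limit, and from 30 to 100 it was 2 of 5, *Cyp4a12b* and *Cyp2s1*.

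**Figure D3:**
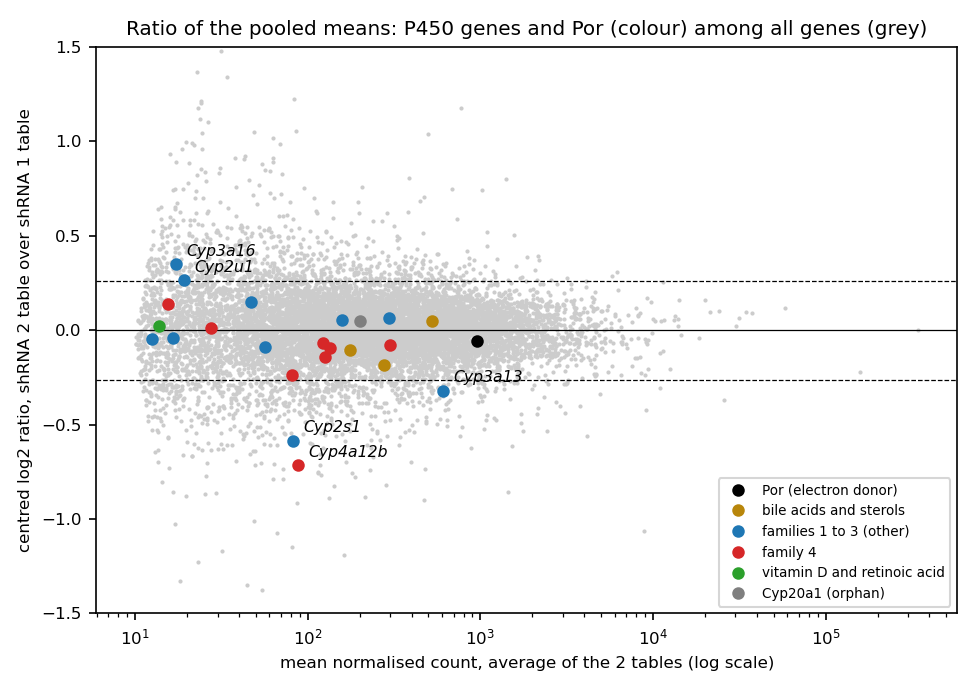
Centred log2 ratio of the pooled mean in the shRNA 2 table over that in the shRNA 1 table (vertical) against the average of both means (horizontal, log scale) for the genes reaching a mean of 10 in each table. Grey points are the 11451 genes, of which 9 lie outside the plotted range, coloured points are the 24 P450 family genes by role, and dashed lines mark 1.2-fold; 5 genes are past the lines.

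The remaining named genes differed less. *Cyp4v3* had a centred log2 ratio of -0.24 and *Cyp51* -0.19. *Cyp2j5*, of the same subfamily as *Cyp2j6*, had 0.15 from means of 43.2 and 50.4, and *Cyp4f15* had 0.14. *Por*, *Cyp39a1*, *Cyp20a1*, *Cyp2d22* and *Cyp2j6* had ratios from -0.06 for *Por* to 0.065 for *Cyp2j6* on this scale. *Cyp2j6* was still among the 5 highest of the 24 genes. By role, 2 of the 8 family 4 genes were above 0 and 6 below. In families 1 to 3, 5 of the 10 genes were above 0 and 5 below, and of the 3 bile acid and sterol genes 1 was above and 2 below. The median over all 11451 genes was 0.0043. These signs depend on the centring, which removed 0.07. *Cyp1a1* and *Cyp1b1*, at -0.04 and -0.05, would be above 0 without it. The 19 genes with a value in both tables but a mean under 10 in at least 1 had log2 ratios from -0.83 for *Cyp2c55* to 0.61 for *Cyp4a32*, too few counts for a reading. *Cyp2d26*, like *Cyp26a1*, had a value in the first table alone, at a mean of 2.44.

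Among the 24 genes past the minimum mean of 10, the lowest ratio belongs to a gene with a near-identical neighbour. *Cyp4a12a* and *Cyp4a12b* lie in the same cluster on the + strand of chromosome 4, at 114971651 to 115005420 and 115084229 to 115111639. Their coding sequences have 1527 bases each and differ at 23 of them, so that 98.5% are identical. The 120 coding bases with the most differences, bases 644 to 763 counted from 1 at the start codon, are shown with the differing bases in capitals. They lie in exon 6 of 12 of either gene, at chr4:114999247-114999366 and chr4:115105500-115105619.
Cyp4a12a: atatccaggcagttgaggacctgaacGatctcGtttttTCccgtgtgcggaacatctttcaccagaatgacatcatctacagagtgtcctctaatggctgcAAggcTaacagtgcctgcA
Cyp4a12b: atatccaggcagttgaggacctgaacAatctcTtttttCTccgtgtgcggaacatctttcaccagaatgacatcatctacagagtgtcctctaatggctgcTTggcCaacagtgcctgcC
This stretch holds 8 of the 23 differences, among them G670A, G676T and A763C, written as the base of *Cyp4a12a*, the position and the base of *Cyp4a12b*. Elsewhere a run of 342 coding bases is the same in both. Of all 50-base windows of the transcripts, 48.9% of those of *Cyp4a12a* and 49.4% of those of *Cyp4a12b* also occur in a coding transcript of another gene. With 100-base windows 35.8% and 36.2% do. The search covered coding transcripts alone, so these shares do not measure where a read pair can map in the genome. Windows shared by genes that overlap at the same place were not set apart. A read pair wholly in sequence that occurs at more than 1 place of the genome has no single place. One that reaches a differing base can have one. *Cyp4a12a* itself had authors' means of 301 in the shRNA 1 table and 299 in the shRNA 2 table, a centred log2 ratio of -0.08. *Cyp4a12b* made up 26.1% of the summed authors' means of the pair in the shRNA 1 table and 18.6% in the shRNA 2 table. The sum itself was 408 in the first table and 367 in the second, a centred log2 ratio of -0.22, within 1.2-fold. How reads were split within the pair was not tested.

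Other members shared windows too, though most shared few or none. Among the 44 P450 genes with a value, 13 shared over 10% of their 50-base windows with a coding transcript of another gene, up to 72.0% for *Cyp2c40*. Its closest relative by coding sequence is *Cyp2c68*, at 98.1% identity, and *Cyp2c68* itself shared 43.3%. Of the first 14 P450 genes by level, 4 shared over 10%, namely *Cyp4a12a*, *Cyp4f16* with 26.4%, *Cyp4a12b* and *Cyp2c68*. Among the 54 genes without a value, 26 shared over 10%. Their median share was 7.66%, against 1.33% for the 44 genes with a value. This difference was not seen with 100-base windows, where both medians were 0 and 8 of the 54 genes against 7 of the 44 shared over 10%. *Cyp3a41a* and *Cyp3a41b*, both without a value, shared 98.6% and 93.5%. Counts of unique pairs can understate genes with so much shared sequence. Of the genes named for their ratio, *Cyp3a13* and *Cyp2s1* shared no window, and *Cyp3a16* shared 10.5%.

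**Figure D4:**
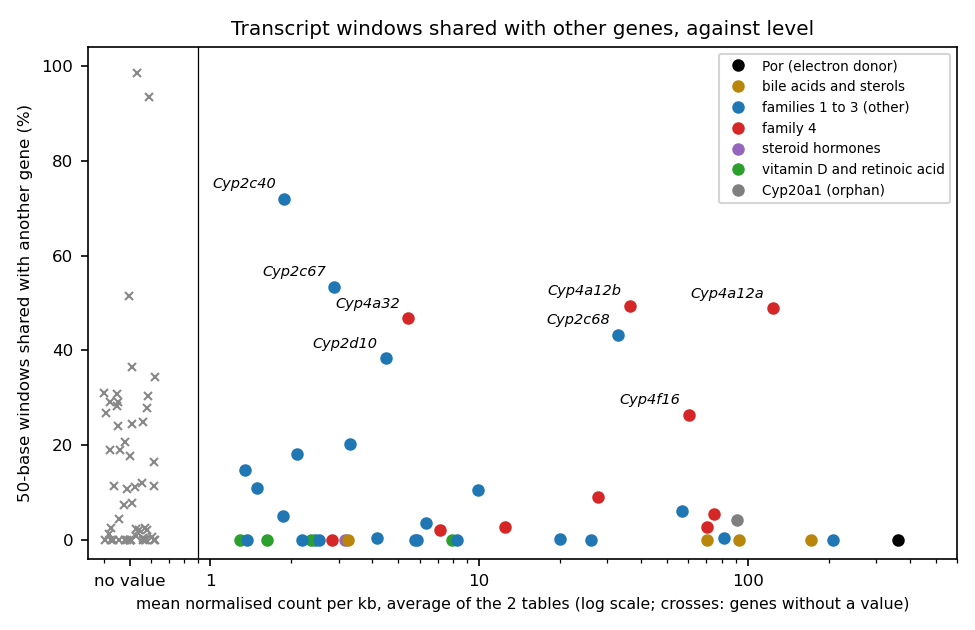
Share of the 50-base windows of each gene's transcript that also occur in a coding transcript of another gene (vertical, percent) against its level per kilobase (horizontal, log scale, average of both tables). Coloured points are the 45 genes with a value by role. Crosses at the left are the 54 annotated genes without one, spread sideways for visibility. Cyp4a12a and Cyp4a12b both sit near 49%, while Por and Cyp3a13 are at 0.

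The genes that serve these enzymes differed widely in level, and some had no value. Of 8 electron transfer symbols looked up, 7 matched the annotation, and all 7 had a value. *Cyb5a* was not matched and is not analysed here. *Cyb5r3*, the cytochrome b5 reductase, had 679 and 716 counts per kilobase in the 2 tables and *Cyb5b* 401 and 354. *Fdx1* and *Fdxr*, the mitochondrial electron carriers, were lower, with 40.3 and 39.7 for the first and 22.0 and 18.5 for the second. *Fdxr*, with a centred log2 ratio of -0.32, was the 1 gene of 7 in this list past 1.2-fold, against 13.1% of all genes, and at -0.25 it was within the limit without the centring. All 10 genes of haem synthesis and breakdown had a value, and their log2 ratios ran from -0.15 to 0.03. *Alas1*, which catalyses the first step of haem synthesis, had 68.5 and 67.2 counts per kilobase.
Of 15 regulators, 13 had a value, and 2 of the 12 with a mean of at least 10 were past 1.2-fold, both lower in the shRNA 2 pool, where 6.63% of all genes were. Neither call held without the centring, where *Nr3c1* had -0.26, just within the limit, and *Nr1h4* -0.21, and where *Nr1i2* alone was past it, in the other direction, at 0.30. *Nr3c1*, the glucocorticoid receptor, had 119 and 98.8 counts per kilobase and a log2 ratio of -0.33. *Nr1h4*, the bile acid receptor, had 393 and 340 and a ratio of -0.28. *Hnf4a*, a master regulator of hepatocyte genes, had 343 and 372, and *Ahr* 60.1 and 54.5. *Nr1i2*, the receptor for foreign compounds known to drive *Cyp3a* genes, stood at 9.09 and 11.2, and *Nr1i3*, its relative for *Cyp2b* genes, had no value.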

How the data were processed

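Libraries from AML12 cells, which the methods call stranded and polyA-enriched, had been sequenced by the authors. TopHat2 was used by the authors for alignment to mm9, HTSeq for counting unique pairs per GENCODE M1 gene, and DESeq2 (1.8.2) for normalisation and comparison. The deposited tables give for each gene the mean normalised count over the 6 libraries of a comparison, a signal used here as the authors' mean. Their 5 other columns hold the authors' own comparison (log2 fold change, standard error, test statistic and p-values) and were not used. Lacking library values, no spread, test or interval could be had. The labels of 2 control libraries name tables of further hairpins, and their titles set the group.

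All 13643 gene identifiers matched GENCODE M1 on NCBIM37, the assembly of mm9. Levels per kilobase use the longest coding transcript. Ratios between tables were centred on the median of genes with a mean of at least 100, read at a minimum mean of 10 and a limit of 1.2-fold, with a calculation that was checked on simulated data. Clusters join P450 genes under 1000 kilobases apart and hold at least 3 genes. Windows of 50 bases were searched in all coding transcripts, and coding identity was taken from global alignments covering at least 80% of the longer sequence. Genes were named by level (the first 15), by ratio (5 in each direction), by role (the highest of each), for a value in 1 table, and as *Por*, and further genes, picked after their values were seen, to describe clusters, shared windows and low or absent enzymes. The members, lists and rules were chosen with earlier results of these data known, and the sequence comparisons after the levels were seen. Python 3.11.15, numpy 2.4.6, pandas 2.3.3, Biopython 1.88 and matplotlib 3.10.9 were used.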

Additional observations from a re-analysis of the deposited data

How the results depend on the processing

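No paired analysis was possible because the tables hold 1 pooled mean per gene, and for the same reason no replicate could be left out. The count of 5 genes past 1.2-fold was 4 with no centring and 5 with tables scaled to the same sum. Of all genes, 15.1% and 13.1% were past it at these settings. For the genes that serve the P450 enzymes, the centring alternatives were chosen after seeing the data. With no centring, the count for electron transfer went from 1 to 0 and that for regulators from 2 lower to 1 higher, while tables scaled to the same sum left 1 and 2. The P450 count became 16 of 43 with no minimum mean, 3 of 16 with a minimum mean of 50 and 2 with a 1.5-fold limit. The share of all genes was not worked out for these last settings, so their counts cannot be read as a result about the family. Of the 24 genes reaching a mean of 10 in each table, 12 reached 100. The median log2 ratio ranged from -0.09 with the minimum of 50 to 0.02 with no centring, so its sign depends on the centring. The 5 leading P450 genes held 50.5% of the summed level by transcript length, 53.0% by the union of exons and 52.2% by coding length. By coding length 3 of these 5 were still among the first 5, and 14 of the first 15 genes were kept. Levels moved by over 1.2-fold for 19 combinations of a named gene and a length, among them *Por*, *Cyp3a13* and *Cyp39a1*. On the average of both tables, the order *Por*, *Cyp3a13*, *Cyp39a1* and *Cyp4a12a* was kept with each length. The order below these genes depended on the length used. By coding length *Cyp4a12a* had 197 and *Cyp2j6* 196 counts per kilobase, which cannot be ranked with no spread at hand. By coding length *Cyp2j6* and *Cyp51* stood among the first 5 P450 genes in place of *Cyp27a1* and *Cyp20a1*. The contrast in shared windows between genes with and without a value was seen with 50-base windows and not with 100-base windows. With 1 mean per gene, genes under a mean of 10 could not be read, and their low level limits any statement on them.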
